A study of Mus musculus with 3 samples.

Results

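Genes of type 2 and type 17 lymphocytes were followed by name through single-cell counts of mouse aorta: Gata3, Rora, Il1rl1, Calca, Areg, Il5, Il13, Il17a and Cd163l1. They are 9 of the 27998 genes listed in each matrix. Of these 9, 8 had at least 1 unique molecular identifier (UMI, the tag that marks 1 captured transcript) in some library, 4 had one in control, and Il13 had none in any library. Suprarenal aortas of 14 mice were pooled by group into 3 libraries, and flow sorting kept CD45+CD31- leukocytes and CD45-CD31+ endothelial cells. Control held 5 C57BL/6 mice fed chow. Room air held 5 Apoe-/- mice fed a high fat (Western) diet for 16 weeks in room air, and aneurysm held 4 Apoe-/- mice on that diet for 16 weeks that breathed cigarette smoke and had a measurable dilatation of the aorta. Background strain is given as C57Bl/6 for all 3 groups. A group exposed to smoke, also counted in the labels, was not analysed here.

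The 9 genes belong to a pair of lymphocyte programmes that respond to alarm signals in tissues. Group 2 innate lymphoid cells (ILC2) lack antigen receptors and live in the outer wall of vessels and at barriers. They depend on the transcription factors Gata3 and Rora, sense interleukin 33 through its receptor ST2, encoded by Il1rl1, and can release interleukins 5 and 13, amphiregulin (Areg) and the calcitonin gene-related peptide made from Calca. Gamma-delta T cells of the type 17 kind carry a T cell receptor of gamma and delta chains, express the scavenger receptor Cd163l1 and make interleukin 17A, which acts on stromal and myeloid cells and draws in neutrophils.

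With 1 library for each group there is no replicate, so no test of groups was possible and no p-value is given. Intervals are 95% and cover counting error only. Apoe loss and diet came together in room air against control and cannot be told apart, and neither can smoke and the choice of mice with a dilatation in aneurysm against room air. Control, room air and aneurysm kept 773, 1821 and 2774 cells, with 2568192, 9998517 and 16698309 UMIs in all barcodes and a median of 2681, 3884 and 4476 UMIs per cell. The stated viability was 73%, 91% and 94%. The knocked-out gene, Apoe, had 10532 counts per 1000000 UMIs (CPM) in control cells against 17.1 and 13.04 in room air and aneurysm. Room air shared 3 cell barcodes with control and 5 with aneurysm, and the 3 lymphocyte classes below shared 0.

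Cells were clustered with the 9 genes left out, so that they did not draw the classes. Cluster 18 was called ILC2-like from 9 detected markers of a list that held none of the 9 genes, and its leading genes were Calca, Rnf128, Gata3, Il1rl1, Klrg1 and Arg1. It held 32 control cells (4.73% of 676 cells of leukocyte classes, interval 3.26 to 6.62), 24 room air cells (1.38% of 1736, 0.888 to 2.05) and 41 aneurysm cells (1.53% of 2680, 1.10 to 2.07). A UMI of a CD3 gene was found in 6, 5 and 11 of them. Cluster 14 was called gamma-delta-T-like from 5 detected markers and was led by Cd163l1, with 4, 64 and 56 cells (0.592%, 3.69% and 2.09%). Genes of the T cell receptor chains, Trdc, Tcrg-C1 and Trac among them, were not analysed here, and the gamma-delta name rests on markers such as Blk, Il17re and Kcnk1. A CD3 UMI was present in 4 of 4, 60 of 64 and 50 of 56 of these cells, a Cd4 UMI in 0, 11 and 4, and a Cd8a UMI in 0, 6 and 0. Other-T-like cells, clusters 5 (led by Dapl1 and Cd8b1), 6 (Izumo1r and Cd4) and 7 (Gzmk and Nkg7), numbered 91, 402 and 542.

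All 9 genes are annotated as protein coding, and the identifiers in the files match the annotation of the same assembly, mm10. Gata3 (ENSMUSG00000015619) lies at chr2:9857078-9890034 on the minus strand, Rora (ENSMUSG00000032238) at chr9:68653786-69388246 on the plus strand and Il1rl1 (ENSMUSG00000026069) at chr1:40429570-40465415 on the plus strand. Calca (ENSMUSG00000030669) lies at chr7:114631478-114636357 on the minus strand and Areg (ENSMUSG00000029378) at chr5:91139599-91148432 on the plus strand. The cytokine genes Il13 (ENSMUSG00000020383, chr11:53631324-53634702, minus strand) and Il5 (ENSMUSG00000036117, chr11:53720794-53725106, plus strand) sit 86091 bases apart on chromosome 11. Il17a (ENSMUSG00000025929) lies at chr1:20730905-20734496 and Cd163l1 (ENSMUSG00000025461) at chr7:140218267-140231145, both on the plus strand.

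The 250 bases upstream of the annotated start are shown for the receptor gene Il1rl1, for Calca and for the cytokine genes Il5, Il13 and Il17a, because these are the receptor and the secreted products of the 2 programmes on which the results below turn. Sequences are from RefSeq on GRCm38.p6, the same assembly, written 5′ to 3′ on the strand of the gene. Capitals mark 3 kinds of match on either strand: GATA words (AGATAA or AGATAG, with A or T as the first letter), the ROR half-site AGGTCA and the cyclic AMP element core TGACGT. The windows are chr1:40429320-40429569 for Il1rl1 (the first of 2 annotated starts), chr7:114636358-114636607 for Calca, chr11:53720544-53720793 for Il5, chr11:53634703-53634952 for Il13 and chr1:20730655-20730904 for Il17a.
Il1rl1: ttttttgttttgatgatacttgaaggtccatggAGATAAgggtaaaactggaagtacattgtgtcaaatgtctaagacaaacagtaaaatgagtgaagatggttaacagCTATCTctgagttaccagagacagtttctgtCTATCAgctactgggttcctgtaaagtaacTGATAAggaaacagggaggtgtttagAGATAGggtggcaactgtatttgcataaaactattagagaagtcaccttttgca
Calca: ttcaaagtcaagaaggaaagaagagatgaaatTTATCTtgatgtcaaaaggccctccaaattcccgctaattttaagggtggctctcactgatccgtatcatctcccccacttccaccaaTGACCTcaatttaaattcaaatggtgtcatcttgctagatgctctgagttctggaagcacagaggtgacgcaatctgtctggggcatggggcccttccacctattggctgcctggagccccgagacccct
Il5: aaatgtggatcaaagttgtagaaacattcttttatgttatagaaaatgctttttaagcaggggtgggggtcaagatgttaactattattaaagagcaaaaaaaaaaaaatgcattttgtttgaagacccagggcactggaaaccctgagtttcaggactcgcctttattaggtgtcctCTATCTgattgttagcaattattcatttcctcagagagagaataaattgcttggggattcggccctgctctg
Il13: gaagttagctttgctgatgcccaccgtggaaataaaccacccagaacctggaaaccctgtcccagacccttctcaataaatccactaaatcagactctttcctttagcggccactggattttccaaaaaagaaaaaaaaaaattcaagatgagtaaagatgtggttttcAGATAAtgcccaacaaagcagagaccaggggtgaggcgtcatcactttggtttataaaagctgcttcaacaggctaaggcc
Il17a: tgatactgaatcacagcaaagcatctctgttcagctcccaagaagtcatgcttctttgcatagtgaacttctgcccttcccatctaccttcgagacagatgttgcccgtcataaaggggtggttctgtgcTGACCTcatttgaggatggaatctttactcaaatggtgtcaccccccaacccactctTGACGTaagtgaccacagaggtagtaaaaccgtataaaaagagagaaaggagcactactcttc

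GATA words were in 7 of the 10 windows of the 9 genes and in 26.5% of 32851 windows of that length, the ROR half-site in 3 of 10 and 14% of windows, and the cyclic AMP element core in 3 of 10 and 6.47% of windows. The second Il1rl1 window, not shown, held 1 match of each kind. The first Il1rl1 window held 5 GATA words, the nearest 54 bases before the start, and no other match. Calca held 1 GATA word at 218 bases and 1 ROR half-site at 130 bases, Il5 held 1 GATA word at 72 bases, and Il13 held 1 at 81 bases. Il17a held no GATA word but 1 ROR half-site at 120 bases and 1 cyclic AMP element core at 63 bases. Among the other windows not shown, Cd163l1 held 2 GATA words, at 149 and 42 bases, and no ROR half-site. Rora held 1 GATA word at 38 bases, while Gata3 and Areg held none. The Gata3 window, chr2:9878601-9878850, lies before the RefSeq start and inside the gene span given above. Areg held 2 overlapping matches of the cyclic AMP element core, at 61 and 59 bases. Neither GATA words nor the ROR half-site therefore separated the lymphocyte programmes. All of these matches are of letters only, and counts from the 3′ end of transcripts do not tell which start was used.

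The transcripts of the 9 genes fell into 3 patterns over the cells, as the plot of where the UMIs lie shows. Calca was mainly an ILC2-like transcript, with 268 of its 366 UMIs (73.2%) in those 97 cells, and Cd163l1 and Il17a were mainly gamma-delta-T-like transcripts, with 223 of 273 (81.7%) and 15 of 17 UMIs (88.2%). Gata3, Rora and Il1rl1 had their highest level in ILC2-like cells but were also found elsewhere, with 42.6%, 19.4% and 38.5% of 573, 556 and 304 UMIs in that class. Areg and Il5 were rare, with 32 and 10 UMIs, of which 8 and 6 were ILC2-like.

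**Figure D1:**
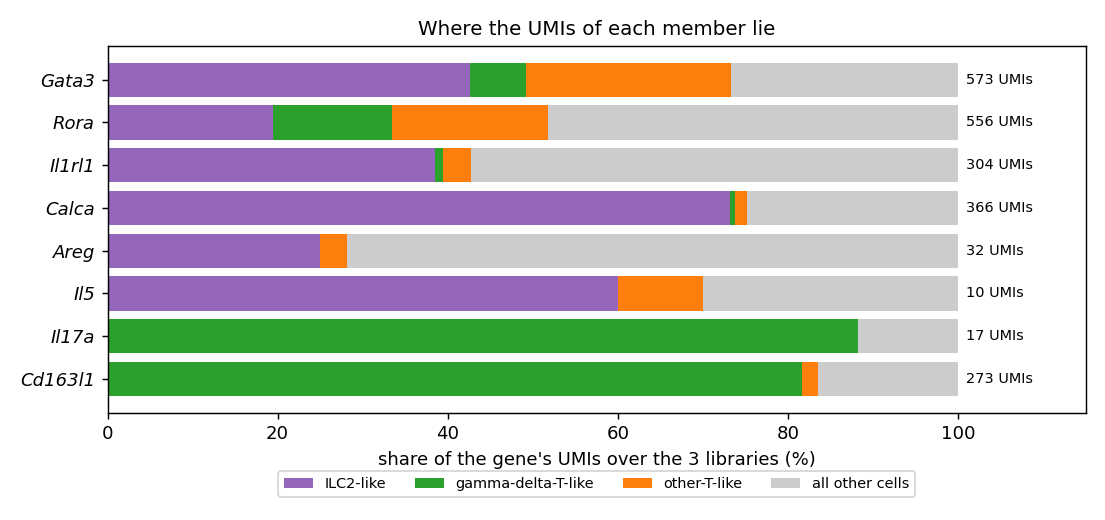
Share of each gene's UMIs (percent, horizontal axis) that lay in ILC2-like, gamma-delta-T-like, other-T-like and all other cells, summed over the 3 libraries, with the number of UMIs at the right. Calca sits mostly in ILC2-like cells (73.2%) and Cd163l1 mostly in gamma-delta-T-like cells (81.7%), while 268 of 556 Rora UMIs lie outside the 3 classes. Il13, with 0 UMIs, is not drawn.

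Gata3, the master regulator of type 2 lymphocytes, had its highest level in ILC2-like cells of every library. The level was 733 CPM in control (46 UMIs in 22 of 32 cells, interval 537 to 978), 1138 CPM in room air (71 UMIs in 21 of 24 cells, 889 to 1436) and 1021 CPM in aneurysm (127 UMIs in 35 of 41 cells, 851 to 1214). Control was the lowest of the 3, and room air against control was 1.55-fold (1.06 to 2.30). Gamma-delta-T-like cells followed, at 105 and 126 CPM in room air and aneurysm; NK-like cells had 97.4, 78.6 and 77.4 CPM, and other-T-like cells had 27.04, 63.3 and 40.8 CPM. The order of gamma-delta-T-like and NK-like cells is not resolved, since 5 and 10 NK-like UMIs stand behind the control and room air values. B-like cells, which do not depend on Gata3 and serve here as a measure of free RNA, had 0, 3.46 and 4.51 CPM.

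Against other-T-like cells of the same library, ILC2-like Gata3 was 27.1-fold higher in control (10.8 to 87.5), 18.0-fold in room air (12.7 to 25.5) and 25-fold in aneurysm (18.4 to 34.3). Of all genes with at least 10 UMIs in the pair of classes, 19.3% in control (of 2703), 16.4% in room air (of 7530) and 18.5% in aneurysm (of 8210) were at least 2-fold higher in ILC2-like cells, and 11.1%, 6.44% and 7% at least 2-fold lower. All 3 of the control members with that many UMIs (Gata3, Rora and Il1rl1), and all 4 in each Apoe-/- library (these and Calca), were above the 2-fold line. Except for Gata3 and Rora in the Apoe-/- libraries, they reached 10 UMIs only through the ILC2-like class. The count of members therefore describes them and supports nothing about them. Cells with a Gata3 UMI made up 68.8%, 87.5% and 85.4% of ILC2-like cells, at median depths of 1964.5, 2555.5 and 2876 UMIs, against 0%, 0.885% and 1.09% of B-like cells at 1299.5, 2227.5 and 2394 UMIs. After every cell was thinned to 1500 UMIs, which left out 4 control cells, a Gata3 UMI was present in 67.9%, 83.3% and 68.3% of ILC2-like cells.

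Rora, a nuclear receptor that ILC2 need for their development, was shared between the innate and the gamma-delta-T-like cells. ILC2-like cells had 319 CPM in control (20 UMIs in 14 of 32 cells, interval 195 to 492), 609 CPM in room air (38 UMIs in 19 of 24 cells, 431 to 836) and 402 CPM in aneurysm (50 UMIs in 27 of 41 cells, 298 to 530). The gamma-delta-T-like level was 238 CPM in room air (171 to 323) and 227 CPM in aneurysm (159 to 314). Rora was thus closer between these classes than Gata3 was, at 2.56-fold higher in ILC2-like cells in room air (1.60 to 4.08) and 1.77-fold in aneurysm (1.13 to 2.80), where Gata3 was 10.9-fold (6.42 to 19.4) and 8.09-fold higher (5.02 to 13.7). Of all genes measured in that pair of classes, 9.48% in room air and 8.27% in aneurysm were at least 2-fold higher in ILC2-like cells. Lower by that measure were 12.5% and 15.3%. Of the members, 4 of 6 (Gata3, Rora, Il1rl1 and Calca) and 3 of 5 (these without Rora) were higher. In each library 1, Cd163l1, was lower. Il1rl1, Calca, Cd163l1 and, in room air, Il17a reached 10 UMIs through only 1 class, so the counts support nothing about them. Other-T-like cells had 16.2, 46.5 and 30.8 CPM of Rora. Outside the lymphocytes, fibroblast-like cells had 85.8 and 89.6 CPM in room air and aneurysm from 6 and 4 UMIs, mature-dendritic-cell-like cells had 55.8 and 38.4 CPM there, and endothelial-like cells had 77.4 CPM in control from 10 UMIs.

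Il1rl1, the interleukin 33 receptor, was seen in most ILC2-like cells of each library and in few T cells. Its level was 414 CPM in control (26 UMIs in 19 of 32 cells, interval 271 to 607), 513 CPM in room air (32 UMIs in 18 of 24 cells, 351 to 724) and 474 CPM in aneurysm (59 UMIs in 30 of 41 cells, 361 to 612), with overlapping intervals. Other-T-like cells held 1, 4 and 5 UMIs, which put the ILC2-like level 76.7-fold higher in control (12.6 to 3143), 138-fold in room air (48.9 to 536) and 151-fold in aneurysm (61.2 to 482). In gamma-delta-T-like cells there were 3 UMIs in room air and 0 in aneurysm. Il1rl1 was also seen in myeloid cells, most of all in control: cluster 20, an unnamed cluster led by Retnla, Lyz1 and Ear2, had 93.7 CPM there (15 UMIs in 8 of 27 cells), and macrophage-like cells had 22.1 CPM (26 UMIs in 23 of 309 cells) against 7.2 and 7.0 CPM in room air and aneurysm.

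**Figure D2:**
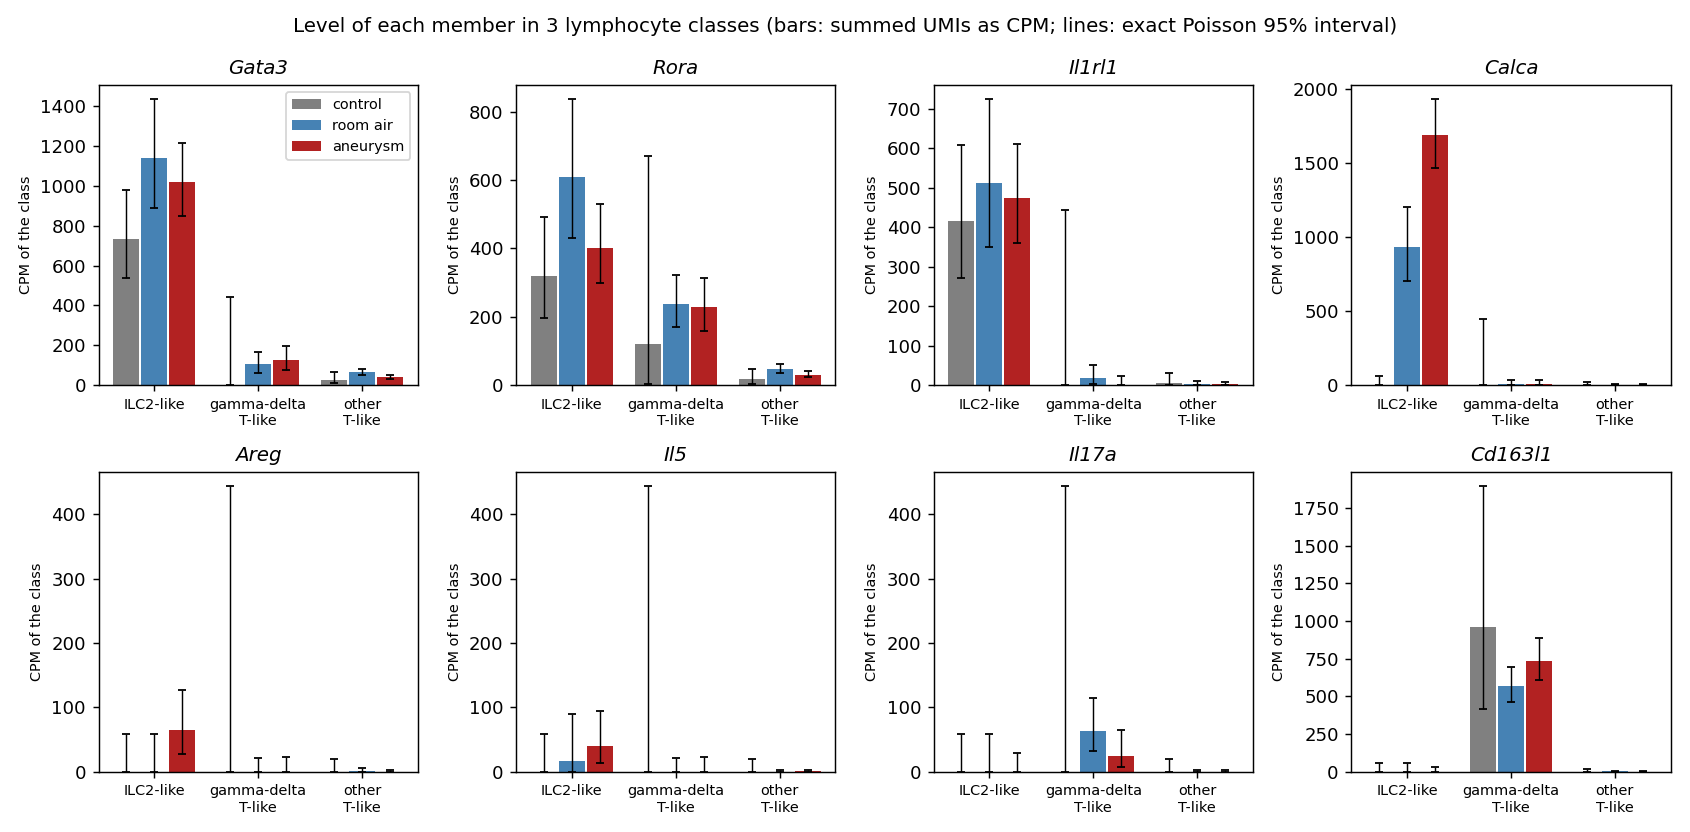
Level of 8 of the genes in CPM (vertical axes, each starting at 0) in ILC2-like, gamma-delta-T-like and other-T-like cells of control, room air and aneurysm. Bars are summed UMIs of 1 library each and lines are exact Poisson 95% intervals. Calca stands at 0, 930 and 1688 CPM in ILC2-like cells, while Gata3, Rora and Il1rl1 are present in ILC2-like cells of all 3 libraries. Control gamma-delta-T-like bars rest on 4 cells.

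Calca, which encodes calcitonin and, by alternative splicing, calcitonin gene-related peptide, differed most between the libraries. It had 0 UMIs in all control cells, ILC2-like cells included, where 0 of 32 cells and 0 of 62728 class UMIs allow a level of up to 47.8 CPM by a floor of 3 counts. In room air it had 58 UMIs in 12 of 24 ILC2-like cells (930 CPM, interval 706 to 1202), and in aneurysm 210 UMIs in 22 of 41 (1688 CPM, 1467 to 1932). The control and room air classes had almost the same total, 62728 and 62371 UMIs. The room air level was 19.4-fold higher than control with control set to that floor, and the exact interval starts at 15.3. Aneurysm was 1.81-fold higher than room air (1.35 to 2.47), short of the 2-fold line, and cells with a Calca UMI were 50.0% and 53.7% of the class, with 45.8% and 43.9% after thinning to 1500 UMIs.

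The Calca UMIs were unevenly spread over cells. Positive room air cells held 1 to 19 UMIs with a median of 2.5, and the 3 highest cells held 38 of the 58 (65.5%). Positive aneurysm cells held 1 to 47 with a median of 5, 8 cells held 10 or more against 2 in room air, and the 3 highest held 97 of the 210 (46.2%). Without the highest cell of each library, a setting added after the data were seen, the levels were 646 and 1352 CPM. In aneurysm the cells with Calca had a median of 3349.5 UMIs and those without had 2564, while in room air the values were 2454.5 and 2582.

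**Figure D3:**
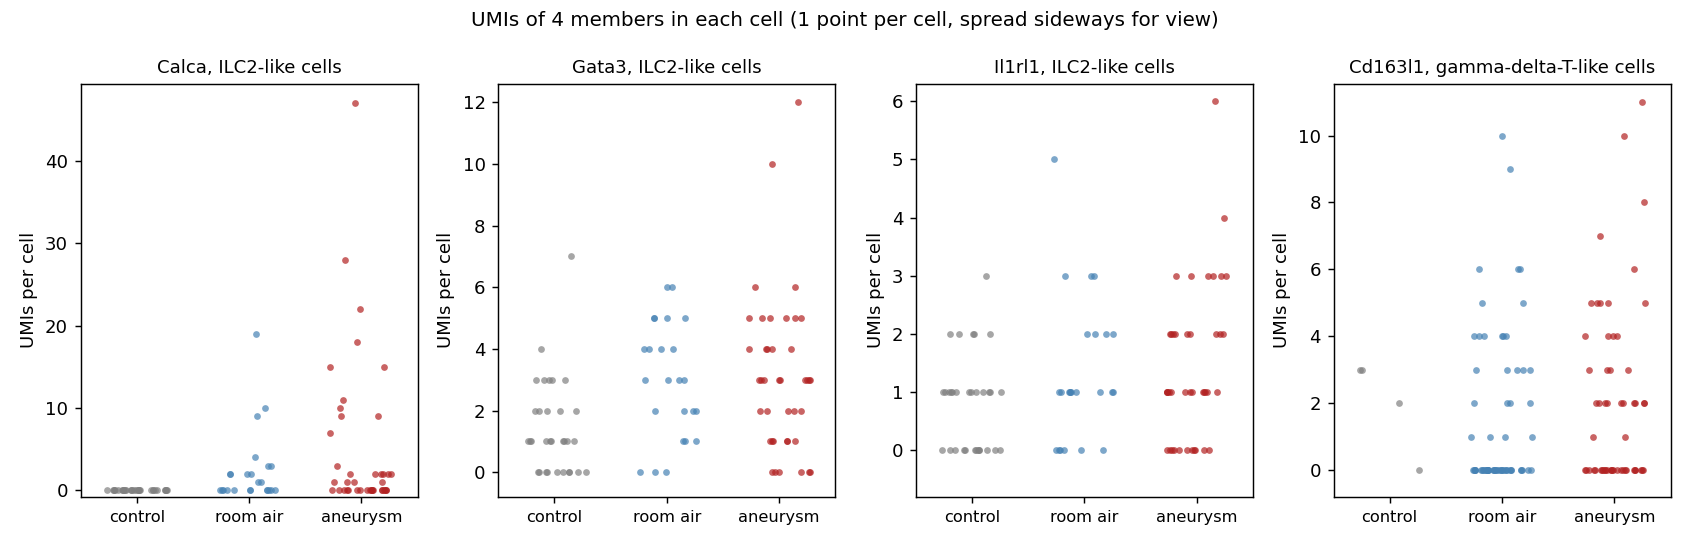
UMIs of Calca, Gata3 and Il1rl1 in each ILC2-like cell and of Cd163l1 in each gamma-delta-T-like cell (vertical axes), by library, 1 point per cell with sideways spread for view. All 32 control cells lie at 0 for Calca, and the highest aneurysm cell lies at 47 UMIs, while Gata3 and Il1rl1 spread over low counts in each library.

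Calca outside the ILC2-like class came mostly from a few cells. Other-T-like cells held 2 UMIs in room air and 3 in aneurysm, which made the ILC2-like level 499-fold higher (132 to 4222) and 896-fold higher (302 to 4378). B-like cells held 0, 0 and 3 UMIs. Of 52 UMIs in cDC2-like cells of aneurysm, 51 were in 1 cell, which also had 4 UMIs of Gata3, 2 of Rora, 2 of Rnf128 and 1 of Il1rl1, none of the cDC2 marker Cd209a and 504 of the class II chain Cd74. In room air 7 of the 9 cDC2-like UMIs were in 1 cell with 5 UMIs of Gata3, 3 of Il1rl1, none of Cd209a and 562 of Cd74. These are cells in which transcripts of ILC2 and of antigen-presenting cells share a barcode, and neither was among the highest doublet scores that were removed.

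Within the ILC2-like class Gata3 and Il1rl1 were detected in most cells both with and without Calca. These shares do not compare the levels of the genes. In aneurysm the cells with Calca were also deeper, with a median of 3349.5 against 2564 UMIs. A Gata3 UMI was present in 11 of 12 Calca-positive and 10 of 12 Calca-negative cells of room air, and in 20 of 22 and 15 of 19 of aneurysm. Il1rl1 was present in 10 of 12 against 8 of 12 in room air and in 16 of 22 against 14 of 19 in aneurysm. Rora was present in 11 of 12 against 8 of 12 and in 15 of 22 against 12 of 19, and after thinning to 1500 UMIs in 10 of 11 against 3 of 13 and 11 of 18 against 10 of 23, a wider gap in room air than as deposited. Thinning was a single random draw, and cells that lost their Calca UMIs in it were counted as Calca-negative. A receptor subunit, Ramp3, which pairs with Calcrl to form a receptor for adrenomedullin, was present in 9 of 12 against 4 of 12 in room air and 14 of 22 against 6 of 19 in aneurysm, and after thinning to 1500 UMIs 7 of 11 against 4 of 13 and 12 of 18 against 4 of 23. Cells with UMIs of all 3 of Gata3, Rora and Il1rl1 numbered 5 of 32 in control, 13 of 24 in room air and 20 of 41 in aneurysm, at unequal depths.

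The effector cytokines of ILC2 were at or near 0. Il13 had 0 UMIs in 773, 1821 and 2774 cells, which by a floor of 3 counts allows up to 1.18, 0.307 and 0.186 CPM over all cells, and up to 47.8, 48.1 and 24.1 CPM in ILC2-like cells. Il5, the eosinophil growth factor, had no UMI among control cells, 1 among room air cells and 9 among aneurysm cells, of which 1 and 5 were ILC2-like (16.0 CPM, interval 0.406 to 89.3, and 40.2 CPM, 13.05 to 93.8). The ratio of aneurysm to room air in that class was 2.51 with an interval of 0.280 to 119, which leaves no direction. All 5 ILC2-like cells with an Il5 UMI also had Calca, 1 in room air and 4 in aneurysm, and after thinning to 1500 UMIs it was 1 of 1 and 2 of 3, and after thinning to 1000 UMIs 1 of 4 in aneurysm. Areg, a ligand of the epidermal growth factor receptor linked to tissue repair, had 8 UMIs in 2 of 41 aneurysm ILC2-like cells (64.3 CPM, 27.8 to 127) and 0 in control and room air. Its other 17 UMIs in aneurysm lay outside the 3 lymphocyte classes, 8 of them in 5 cDC2-like cells, where it was spread over myeloid cells and an unnamed cluster.

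Cd163l1, a scavenger receptor of the cysteine-rich family, had most of its UMIs in gamma-delta-T-like cells. Its level in gamma-delta-T-like cells was 569 CPM in room air (98 UMIs in 26 of 64 cells, interval 462 to 694) and 738 CPM in aneurysm (117 UMIs in 30 of 56 cells, 610 to 885). The 4 control cells held 8 UMIs in 3 cells (962 CPM, 416 to 1896). Other-T-like cells held 0, 3 and 2 UMIs, which put the gamma-delta-T-like level 204-fold higher in room air (67.7 to 1005) and 588-fold higher in aneurysm (159 to 4909), and ILC2-like cells held 0 in each library. Positive cells held a median of 3.5 UMIs in room air and 3 in aneurysm, with the highest at 10 and 11. In aneurysm 1 B-like cell held 9 UMIs, and the 15 UMIs of room air macrophage-like cells were spread over 15 cells.

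Il17a, the cytokine of the type 17 programme, had 11 UMIs in 6 of 64 gamma-delta-T-like cells of room air (63.9 CPM, interval 31.9 to 114) and 4 UMIs in 2 of 56 of aneurysm (25.2 CPM, 6.88 to 64.6). It had 0 UMIs in control, where the 4 cells of this class allow up to 361 CPM. Of the Il17a-positive cells, 5 of 6 in room air and 2 of 2 in aneurysm also had Cd163l1. Other-T-like cells had 0 Il17a UMIs in 91, 402 and 542 cells. With that 0 set to a floor of 3 counts, the gamma-delta-T-like level was 22.9-fold higher in room air (interval from 15.7). In aneurysm it was 13.4-fold higher from 4 UMIs (interval from 6.63). Among the neighbouring cytokines, Il17f had 3 UMIs in room air and 1 in aneurysm, all in this class, and Il22 had 0.

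Rora and Gata3 in gamma-delta-T-like cells stood between ILC2-like and other-T-like cells. Rora was 5.12-fold higher than in other-T-like cells in room air (3.30 to 7.89) and 7.38-fold in aneurysm (4.66 to 11.6). Gata3 was 1.65-fold higher in room air (0.924 to 2.81), with an interval that includes 1, and 3.09-fold in aneurysm (1.77 to 5.17). Of all genes with at least 10 UMIs, 13.2% in room air (of 7834) and 22.7% in aneurysm (of 8334) were at least 2-fold higher in gamma-delta-T-like cells, and 8.81% and 6.66% lower. Of the members with that many UMIs, 3 of 4 in room air (Rora, Il17a and Cd163l1) and 3 of 3 in aneurysm (Gata3, Rora and Cd163l1) were above that line. Cd163l1 and, in room air, Il17a reached that number only through gamma-delta-T-like cells. The count of members therefore supports nothing about them.

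In the other T cells both regulators were low, and the ratios between libraries had intervals that included 1 except for Gata3 in aneurysm against room air. Gata3 was 2.34-fold higher in room air than in control (0.956 to 7.44) and Rora 2.87-fold (0.927 to 14.4), from 5 and 3 control UMIs, in a comparison where 21.9% of 7673 genes were at least 2-fold higher and 3.75% lower and the median log2 ratio over all genes was 0.31. In aneurysm against room air Gata3 was at 0.645 (0.452 to 0.920) and Rora at 0.661 (0.437 to 1.00), where 3.58% of 9166 genes were at least 2-fold higher and 9.32% lower. Clusters 5, 6 and 7 held 44, 45 and 2 control cells, 76, 98 and 228 room air cells and 257, 199 and 86 aneurysm cells. Within cluster 6, the Cd4 cells, Gata3 was at 12.3, 87.7 and 66.9 CPM, from 1, 23 and 38 UMIs. Within cluster 7, the Gzmk cells, it was at 69.8 and 64.3 CPM in room air and aneurysm, and within cluster 5, the naive-type Cd8b1 cells, at 31.1, 21.0 and 14.2 CPM. The larger share of cluster 5 in aneurysm moved together with the lower level of the class, and its part in the result was not tested.

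Regulatory T cells can carry Gata3, Rora and ST2. At this depth a cell without a Foxp3 UMI is not shown to lack it, so the cells named here are those with a UMI and not a count of the type. In aneurysm 13 other-T-like cells had a UMI of their factor Foxp3, and of these 8 had Rora, 4 had Il1rl1 and 3 had Gata3, while Il1rl1 was found in 1 of the 529 cells without Foxp3. In room air 6 cells had Foxp3, of which 3 had Rora, 1 had Gata3 and 0 had Il1rl1, and the 1 other-T-like cell with Areg was among them. After thinning to 1500 UMIs, 9 aneurysm cells kept Foxp3, with Rora in 2 and Il1rl1 in 1.

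Between room air and control the ratios of Gata3, Rora and Il1rl1 in ILC2-like cells were nearer to 1 than that of Calca, as the plot of library ratios shows. Of 1906 genes with at least 10 UMIs, 17.5% were at least 2-fold higher and 6.19% at least 2-fold lower in room air than in control. Of the 4 members with that many UMIs, 1 was higher by that measure (Calca) and none lower. Calca reached that number through room air alone. Gata3 was 1.55-fold higher (1.06 to 2.30), Rora 1.91-fold (1.08 to 3.47) and Il1rl1 1.24-fold (0.715 to 2.16). Cell choice turned these directions: with ILC2 picked by each cell's own markers the log2 ratios were -1.05, -0.66 and -1.52, in a set of 22 control, 41 room air and 90 aneurysm cells of which 0, 16 and 45 lay in macrophage-, monocyte- or dendritic-like clusters. With that choice Calca stayed higher, at a log2 ratio of 2.23 against 4.28.

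From room air to aneurysm, 10.9% of 2845 genes were at least 2-fold higher and 7.66% at least 2-fold lower in ILC2-like cells, and 0 of the 4 members passed either line. This count changed with the choice of cells: without the highest Calca cell of each library the log2 ratio of Calca was 1.07, above the line, and with ILC2 picked by each cell's own markers that of Rora was -1.41, below it. Gata3 was at 0.897 (0.665 to 1.22), Rora at 0.660 (0.424 to 1.03) and Il1rl1 at 0.924 (0.591 to 1.47), all with intervals that include 1. In gamma-delta-T-like cells 7.37% of 4533 genes were at least 2-fold higher and 7.83% lower. Of the 4 members with enough UMIs, 0 were higher and 1, Il17a, was lower at 0.395 (0.0917 to 1.33). Il17a had enough UMIs through room air alone, with 4 in aneurysm against 11. Cd163l1 was 1.30-fold higher (0.983 to 1.71), Gata3 1.21-fold (0.606 to 2.42; a log2 ratio of 1.38, above the 2-fold line, with gamma-delta cells picked by their own markers) and Rora at 0.954 (0.592 to 1.53). The Cd163l1 direction turned at clustering resolution 1.5, with a log2 ratio of -0.11, where 39 room air and 51 aneurysm cells were left in the class.

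**Figure D4:**
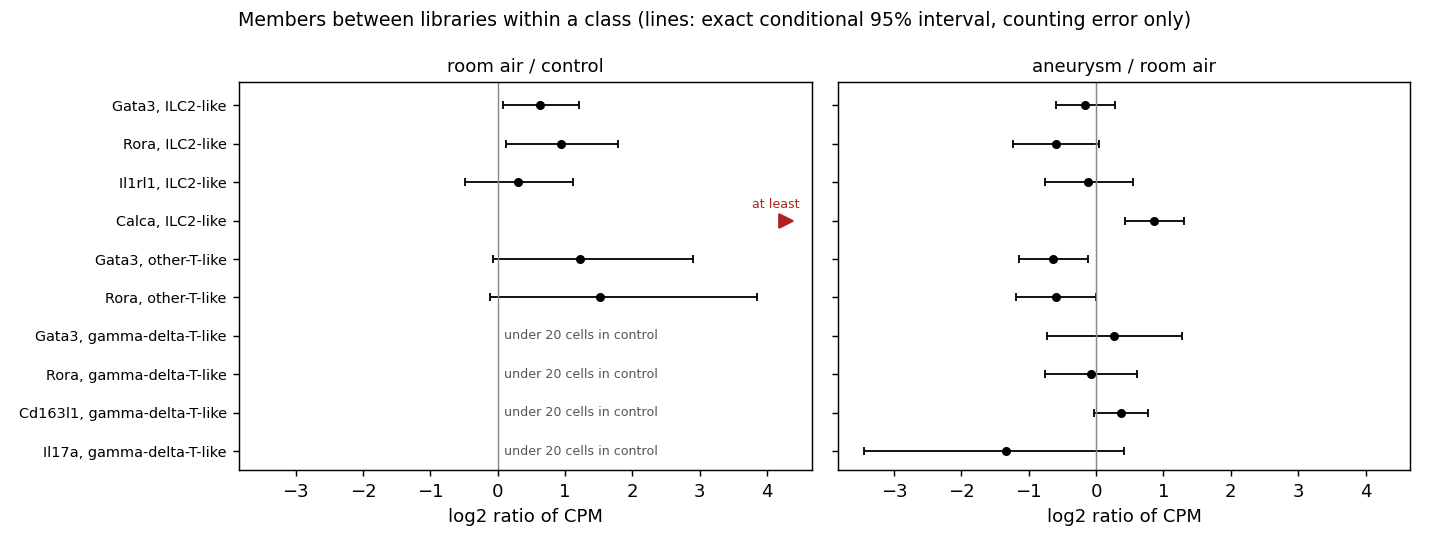
Log2 ratio of CPM between libraries within a class (horizontal axis) for room air over control (left) and aneurysm over room air (right), with exact conditional 95% intervals for counting error. Calca is drawn as a lower bound at 4.28 on the left and lies at 0.86 on the right, and the other ILC2-like genes lie between -0.60 and 0.93. No ratio to control was formed for gamma-delta-T-like cells, which number 4 there.

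Beyond the 9, a list of 30 other type 2 lymphocyte genes was read in the ILC2-like class. Because 10 of the 30 were also naming markers, counts are given with and without them, and since all list genes could enter the clustering they describe the class and support nothing about it. Against other-T-like cells 9 of 14 genes with at least 10 UMIs were at least 2-fold higher in control, 12 of 17 in room air and 14 of 20 in aneurysm. Of all genes 19.3%, 16.4% and 18.5% were. Lower by that measure were 1, 1 and 2 list genes, beside 11.1%, 6.44% and 7% of all genes. Without naming markers 3 of 8, 7 of 11 and 8 of 13 were higher. The list medians were 2.87, 1.90 and 2.69 in log2 against 0.21, 0.05 and 0.20 for all genes. Among those with the largest ratios were Arg1, Il2ra, Rnf128 and Hs3st1. Arg1, the arginase that ILC2 hold at rest, was 79.6-fold higher in control, 258-fold in room air and 105-fold in aneurysm. These Arg1 values rest on 1, 1 and 5 other-T-like UMIs. Il2ra, the interleukin 2 receptor alpha chain, was 44.2-fold higher in control. Rnf128, a ubiquitin ligase, was 34.4-fold higher in control against a floor of 3 counts (interval from 26.5) and 429-fold in aneurysm. Hs3st1, a heparan sulfotransferase, was 146-fold higher in room air and 614-fold in aneurysm. Arg1, Il2ra, Rnf128 and Hs3st1 were naming markers, so their high level in the class was largely fixed by its naming. Pparg, a lipid-sensing nuclear receptor used by ILC2, was not a naming marker. It was 34.4-fold higher in room air and 218-fold in aneurysm, from 5 and 1 UMIs of other-T-like cells. Against gamma-delta-T-like cells and without naming markers, 2 of 11 list genes were at least 2-fold higher and 3 lower in room air. In aneurysm 3 of 12 were higher and 4 lower. Of all genes 9.48% and 8.27% were higher and 12.5% and 15.3% lower. Against NK-like cells 3 of 7, 6 of 11 and 7 of 12 were higher in control, room air and aneurysm, and 1, 2 and 2 lower. Of all genes 14.3%, 13.8% and 12.9% were higher there and 13.9%, 12.3% and 11.7% lower.

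Between libraries the largest ratio of the type 2 list was that of Ramp3. In room air against control 5 of 16 genes were at least 2-fold higher and 0 lower, beside 17.5% and 6.19% of all genes, with a median log2 of 0.20 against 0.01 over all genes. Without naming markers it was 4 of 9 higher and 0 lower, with a median of 0.88. In these counts, Ramp3, Icos and Pparg reached 10 UMIs only through room air. The counts therefore describe the list and support nothing about it. Ramp3 had 39 UMIs against 2 (625 against 31.9 CPM, 19.6-fold, 5.08 to 168), Icos, a costimulatory receptor, was 4.36-fold higher (1.20 to 23.8), Ets1 2.30-fold (1.19 to 4.66), Pparg 2.01-fold (0.626 to 7.50) and Hs3st1 2.01-fold (1.09 to 3.84). Of a separate list of type 2 ligands and receivers, the growth factor gene Il2 was 5.03-fold higher from 10 against 2 UMIs (1.07 to 47.2), and in aneurysm against room air it was at 0.301 from 6 against 10 UMIs (0.0898 to 0.913). In aneurysm against room air 1 of 17 genes of the type 2 list was higher and 0 were lower, beside 10.9% and 7.66% of all genes. The higher gene was Csf2, which encodes the cytokine GM-CSF, at 5.51-fold with an interval of 0.801 to 237. The 7, 1 and 11 ILC2-like UMIs of Csf2 in the 3 libraries gave 112, 16.0 and 88.4 CPM. Il4 had 2, 0 and 5 ILC2-like UMIs, and Il9 had 0 in all cells.

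The type 17 list was read in the same way for gamma-delta-T-like cells, and it likewise describes the class and supports nothing about it. Of 24 genes present, 8 were naming markers. At least 2-fold higher than in other-T-like cells were 13 of 16 genes with at least 10 UMIs in room air and 15 of 17 in aneurysm. Of all genes 13.2% and 22.7% were. Lower by that measure were 1 and 0 list genes, beside 8.81% and 6.66% of all genes. Without naming markers 8 of 11 and 10 of 12 were higher. The list medians were 3.53 and 4.03 in log2 against 0.16 and 0.33 for all genes. Blk, Kcnk1 and Il17re were naming markers, so their high level in the class was largely fixed by its naming. The kinase Blk was 44.7-fold higher in room air (18.9 to 129) and 291-fold in aneurysm (77.1 to 2463). With 0 other-T-like UMIs set to a floor of 3 counts, the channel gene Kcnk1 was 54.1-fold (interval from 40.9) and 154-fold higher (from 120). The interleukin 17 receptor chain Il17re was, in the same way, 33.3-fold (interval from 24.1) and 67.0-fold higher (from 49.6). Some genes of each list were also at least 2-fold higher in the other class. In ILC2-like against other-T-like cells, 3 of 5, 4 of 10 and 6 of 11 type 17 genes were higher in control, room air and aneurysm. Of all genes 19.3%, 16.4% and 18.5% were. Lower were 1, 1 and 0, beside 11.1%, 6.44% and 7% of all genes. The list medians were 3.29, 0.24 and 1.16 in log2 against 0.21, 0.05 and 0.20. In gamma-delta-T-like cells 6 of 14 and 8 of 14 type 2 genes were higher in room air and aneurysm, and 0 and 1 lower. The shares of all genes for that pair are given above. Cxcr6 is on both lists, and Il2ra, higher in both classes, was an ILC2 naming marker. From room air to aneurysm 1 of 17 type 17 genes was at least 2-fold higher in gamma-delta-T-like cells (Lta, 2.72-fold, 0.783 to 11.9). Another, Il1r1, was lower at 0.483 (0.109 to 1.73). Both intervals included 1, and of all genes 7.37% were higher and 7.83% lower.

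Signals that act on these cells were detected outside them. Il33, the ligand of ST2, had 8, 86 and 85 UMIs, of which 66 in room air and 67 in aneurysm were in 5 of 8 and 7 of 10 fibroblast-like cells (944 and 1500.5 CPM), cells outside both sort gates, so that the level of Il33 in the tissue is not measured here. Tslp, which also activates ILC2, was highest in macrophage-like cells of control (118 UMIs in 85 of 309 cells, 100.3 CPM) against 15.2 and 11.9 CPM in room air and aneurysm, and Il25 had 0 UMIs. The receptor subunit Ramp1, which pairs with Calcrl to bind calcitonin gene-related peptide, was highest in gamma-delta-T-like cells (685 and 978 CPM in room air and aneurysm) and then in ILC2-like cells (414, 481 and 394 CPM), while Calcrl itself was low, with 25, 57 and 93 UMIs in all cells, and reached 85.2, 17.6 and 76.3 CPM in endothelial-like cells. The interleukin 17 receptor gene Il17ra was highest in monocyte-like cells (220, 257 and 171 CPM), and Il23a, a subunit of the cytokine that drives type 17 cells, had 2 UMIs in room air and 0 in control and aneurysm.

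Genes with the most similar pattern were ranked by Pearson's r of log2(CPM + 10) over 34 sums of a class in a library, among 11848 genes with at least 30 UMIs. The points share libraries and depth, and values are a description. Ptpn13, Rnf128, Kcnk1 and Il17re were naming markers of the classes, so a high r for them is partly built in. Nearest to Gata3 were Fhl2 (0.93), Bmp7 (0.93) and Gfi1 (0.91), nearest to Il1rl1 were Ptpn13 (0.95), Rnf128 (0.94) and Igsf5 (0.93), and nearest to Rora were Xlr4c (0.88), Tnfsf11 (0.87) and Pard3 (0.86). Galnt3 (0.91), BC025920 (0.84) and Hlf (0.84) were nearest to Calca, and Calca was nearest to Il5 (0.96), which rests on 10 UMIs. Cd163l1 was followed by Kcnk1 (0.97), Il17re (0.97) and Ly6g5b (0.97). Il17a, with 17 UMIs, was followed by Cd163l1 (0.95), Ly6g5b (0.94) and Il17re (0.94). Areg, with 32 UMIs, had Pde7b (0.83), Tctn3 (0.79) and Zfp850 (0.79).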

How the data were processed

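The deposited counts are raw whole numbers of UMIs for every gene in every barcode. Per the labels, libraries were 10x Genomics 3′ v2. The submitters' processing notes name Cell Ranger, STAR and mm10; versions are not given in the sources used here. Of 5475 barcodes, those with at least 200 genes and at most 10% mitochondrial UMIs were kept (5465). The automatic Scrublet threshold marked 3 (0.0549%) and was not used. The cells with the highest scores, at 0.8% per 1000 barcodes, were removed (5, 27 and 65).

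Counts were scaled to 10000 UMIs per cell, logged and clustered for the 3 libraries together, without the 9 genes (2000 variable genes, 30 components, 15 neighbours, Leiden resolution 1, 23 clusters; scanpy 1.11.5, leidenalg 0.10.2, scipy 1.17.1). A cluster was named by its highest mean marker score of at least 0.5, with 3 markers detected in 10% of its cells. The limit of 0.5 was set after clusters were seen and left clusters 17 and 20 unnamed (50 control, 39 room air and 58 aneurysm cells). UMIs were summed by class and library as CPM with exact Poisson intervals, shares have exact Clopper-Pearson intervals and ratios exact conditional binomial intervals. A sum of 0 was set to 3 counts over the group to form a fold, and the exact interval of that ratio can start lower. Ratios needed 20 cells in both groups, and genes counted as measured had 10 UMIs over both. Simulated counts with 200 changed genes were used to test the ratio step. Named list genes are the up to 6 with the largest ratio of at least 2 in a list and comparison. The 9 genes, lists and markers were chosen with earlier results of these data known. Alternatives were clustering with the 9 genes, resolution 1.5, classes from each cell's own markers, no doublet removal, subtraction of the B-like level, thinning, mean shares per cell and a minimum of 30 UMIs. A gene of the type 17 list is not reported here by name.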

Additional observations from a re-analysis of the deposited data

How the results depend on the processing

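Of 268 recomputed values for 35 ratios, 256 stayed within the counting interval of the reported value and 12 moved out of it; among 192 values for 24 levels 171 stayed and 21 moved. With ILC2 picked by each cell's own markers, the log2 ratios in room air against control were -1.05 for Gata3 (0.63 as reported), -0.66 for Rora (0.93), -1.52 for Il1rl1 (0.31) and 2.23 for Calca (4.28), and in aneurysm against room air -0.65 for Gata3 (-0.16) and -1.41 for Rora (-0.60). Gamma-delta and other T cells could not be picked by receptor genes, so other markers were used, a setting added after the data were seen. It gave log2 ratios in aneurysm of 6.50 for Cd163l1 against other T cells (9.20) and, in aneurysm against room air, -0.34 for Cd163l1 (0.38) and 1.38 for Gata3 (0.27); Cd163l1 was -0.11 there at resolution 1.5. Thinned to 1500 UMIs, Rora in ILC2-like against other-T-like cells of aneurysm was 4.40 (3.71) and Il17a in gamma-delta-T-like against other-T-like cells of room air 3.07 (4.52), with fewer UMIs. The cause of the other moves was not tested. Clustering with the 9 genes, no doublet removal, subtraction of the B-like level and mean shares per cell moved 0 of 35 ratios each. With 30 UMIs as the minimum, genes at least 2-fold higher in ILC2-like cells of room air against control were 50 of 581 in place of 334 of 1906. No paired analysis was possible because each group is 1 library. Il5, Il13, Il17a and Areg had 10, 0, 17 and 32 UMIs in all.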
